A study of Mus musculus with 6 samples.

Results

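The genes described here are the POTE ankyrin genes POTEE, POTEF, POTEI and POTEJ and 6 further genes. Of the latter, CFC1, CFC1B, FAR2P1, FAR2P2 and FAR2P3 lie near these POTE genes on chromosome 2, and ANKRD30B lies on chromosome 18. All were taken by gene name from the deposited count table and are 10 of its 58735 genes. The list was selected on the counts of these same libraries, because the named genes stood higher in the resistant cells, so the difference between the groups is given for them as a description, with no test. RNA-Seq compared parental 22Rv1 cells given vehicle with 22Rv1 BL-B01D1_R, a subline of 22Rv1 kept in gradually rising concentrations of BL-B01D1, with 3 libraries in each group. The 22Rv1 line derives from a human prostate carcinoma and expresses the androgen receptor, and BL-B01D1 is a bispecific antibody that binds EGFR and HER3 and carries a cytotoxic payload. The comparison was made to find transcripts that differ in cells that have become resistant to the drug. The subline comes from 1 selection, and the sources used here do not say whether the 3 libraries of a group came from separate cultures, so the spread between libraries covers neither a repeated selection nor, with certainty, more than technical variation.

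POTE genes are a primate-specific family, named for their expression in prostate, ovary and testis, that encode proteins with ankyrin repeats. POTEE, POTEF, POTEI and POTEJ belong to the branch whose open reading frame also runs into an actin-like segment that derives from a retroposed copy of an actin gene. The family is scattered over pericentromeric regions of several chromosomes, where stretches of DNA have been copied repeatedly and copies remain nearly identical. A short read from such a stretch can fit several copies equally well, and how the authors' counting treated such reads is not given in the sources used here. The counts of each copy are therefore uncertain, and the sums over copies are given beside them.

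The 6 libraries held between 13821639 and 17251491 counts on genes, and 3 counts in a library correspond to 0.174 to 0.216 CPM (the count of a gene in every 1000000 counts of its library, after TMM adjustment of the library size). All 10 members passed the filter on low counts, together with 17142 genes in all. Of 10 markers of prostate luminal cells, all were tested (6 higher and 3 lower at an FDR of less than 0.05, 0 past the fold threshold, against 17.1% and 18.4% of all tested genes past the FDR and 2.53% and 2.84% past both thresholds), and their summed level was 3448 to 3550 CPM in parental and 3640 to 3728 CPM in resistant libraries. Of the 4 germ cell markers, listed because POTE genes are also expressed in germ cells, DAZL, SYCP1 and PRM1 were at 0 in all libraries and DDX4 had at most 1 count. Basal, immune and endothelial markers had at most 5 counts in any library. Among 3 stromal markers, COL1A1 had between 164 and 259 counts and fell slightly in resistant cells (log2 fold change −0.28, FDR 0.0348 in edgeR's test), and the list summed to 15.1 to 17.1 CPM in parental and 12.98 to 13.06 CPM in resistant libraries. The part of these cell type markers in the results below was not tested.

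POTEF was the most abundant POTE gene in both groups. It had 24.5, 34.2 and 30.5 CPM in parental libraries 1, 2 and 3 and 51.8, 60.6 and 59.7 CPM in resistant libraries 1, 2 and 3, and the groups did not overlap. Its log2 fold change, resistant over parental, was 0.95 (SE 0.077), a 1.93-fold difference. In bulk libraries a higher level per cell cannot be told apart from a larger share of cells that carry the transcript. POTEF (ENSG00000196604) codes for protein and occupies bases 130074030 to 130129222 of chromosome 2 in hg38, reverse strand.

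The other POTE members were roughly an order of magnitude lower in reads but lay on the same side. POTEJ (chromosome 2, forward strand, 130611481 to 130658091) had 76, 44 and 26 counts in parental libraries and 108, 120 and 152 in resistant libraries, with a log2 fold change of 1.40 (SE 0.20). Parental library 1 held the largest parental POTEJ count, and without it the log2 fold change was 1.81. POTEI (reverse strand, 130459455 to 130509666) went from 48, 40 and 38 counts to 122, 66 and 79, with the first resistant library well above the others, and its log2 fold change was 1.09 (SE 0.20). POTEE (forward strand, 131218067 to 131265278) went from 70, 54 and 43 counts to 99, 97 and 133, for a log2 fold change of 0.99 (SE 0.17). The POTEE gene lies inside the span of PLEKHB2 on the same strand, a gene with up to 3189 counts in a library. Reads from shared bases of overlapping genes may go to either.

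Summed over the copies, reads of POTEE, POTEF, POTEI and POTEJ amounted to 35.7, 42.5 and 38.3 CPM in parental cells and 71.6, 79.9 and 82.1 CPM in resistant cells. Summed into 1 feature before the fit, they gave a log2 fold change of 1.00 (SE 0.060). The sum removes exchange of reads among these 4 genes only, and reads shared with other copies were not tested. POTEF took 68.5% of the summed reads in parental library 1 (95% Wilson interval 64.7% to 72.1%), 80.6% (77.6% to 83.4%) in library 2 and 79.8% (76.2% to 83.0%) in library 3. In resistant libraries it took 72.3% (69.7% to 74.8%), 75.9% (73.4% to 78.3%) and 72.7% (70.2% to 75.0%). The resistant shares lay within the range of the parental ones, although the parental libraries differed among themselves by more than counting error.

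CFC1 encodes Cryptic, a membrane-attached co-receptor of the EGF-CFC family that lets cells respond to NODAL, and was the member with the most reads. CFC1 (ENSG00000136698; chromosome 2, reverse strand, 130592168 to 130599575) was at 103, 119.5 and 109.9 CPM in parental libraries and at 215, 167 and 177 CPM in resistant libraries. The resistant libraries spread over a wider range than the parental ones but did not overlap them, and the log2 fold change was 0.75 (SE 0.054). CFC1B (forward strand, 130521197 to 130528604) is its close copy, and the table lists the same length of 1669 bases for both. Its counts were 46, 26 and 36 in parental and 60, 50 and 64 in resistant libraries, with a log2 fold change of 0.69 (SE 0.23). CFC1B took between 1.28% and 2.52% of the reads of the pair in parental libraries and between 1.66% and 2.18% in resistant libraries. Summed, the pair had a log2 fold change of 0.75 (SE 0.053).

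FAR2P1, FAR2P2 and FAR2P3 are transcribed pseudogenes of FAR2, whose enzyme reduces fatty acyl-CoA to fatty alcohols. FAR2P1 (reverse strand, 129990456 to 130051131) carried most of the reads, with 39.9, 41.3 and 37.2 CPM in parental and 89.7, 86.0 and 83.1 CPM in resistant libraries. The groups lay far apart for their spread, and the log2 fold change was 1.13 (SE 0.0536), with the smallest SE among the members. FAR2P3 (forward strand, 130690133 to 130718831) went from 47, 44 and 28 counts to 97, 76 and 101, and had a log2 fold change of 1.22 (SE 0.19). FAR2P2 (reverse strand, 130416755 to 130431363) was the weakest, with 15, 16 and 21 counts against 40, 28 and 29 and a log2 fold change of 0.89 (SE 0.31). With FAR2P1, FAR2P2 and FAR2P3 summed into 1 feature before the fit, the log2 fold change was 1.13. Exchange of reads among these copies, or with other FAR2 copies, was not tested.

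ANKRD30B stood apart from the rest by the size of its difference. It encodes an ankyrin repeat protein related to the breast differentiation antigen ANKRD30A, and lies on chromosome 18 (ENSG00000180777; forward strand, 14728272 to 14852738). The parental libraries held 10, 12 and 9 counts and the resistant libraries 133, 151 and 150, or 0.65 ± 0.067 CPM against 9.18 ± 1.12 CPM (SD, n = 3). The log2 fold change was 3.81 (SE 0.22), with a 95% interval of the fold difference from 10.3 to 19.0. The size of this value depends on the prior count because of the few parental reads, and with a prior count of 5 it was 3.30. ANKRD30B needed resistant libraries to pass the filter on low counts, and it left the test under a minimum of 10 counts per library.

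**Figure D1:**
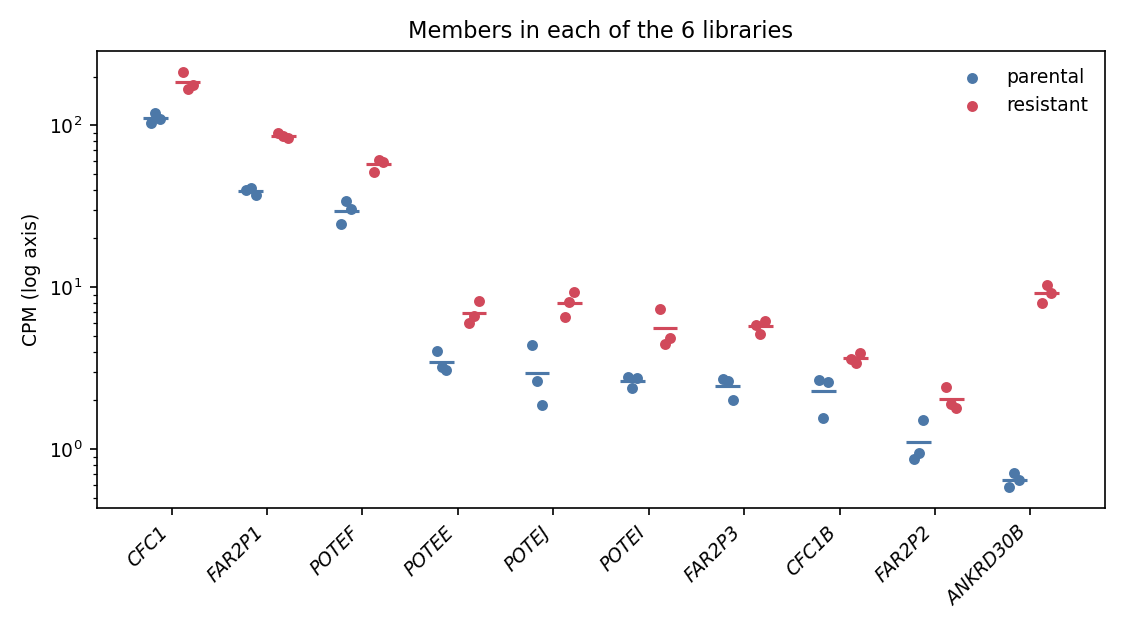
CPM of the 10 members in each library on a log axis, with parental libraries in blue, resistant libraries in red and a bar at the mean of each group of 3. For every member the 3 resistant points lie above the 3 parental points, by 3.81 on the log2 scale for ANKRD30B and by 0.69 to 1.40 for the members on chromosome 2.

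In all 10 members every resistant library lay above every parental library, a pattern that 22.1% of the tested genes showed. At an FDR of less than 0.05 and a log2 fold change above 1, the thresholds of the study's methods, 5 of the 10 members would be called higher (FAR2P1, FAR2P3, POTEI, POTEJ and ANKRD30B), against 2.53% of all tested genes called higher and 2.84% called lower. Nothing is read from these counts, since the same contrast chose the members. The median log2 fold change was 1.04 over the members and 0.00379 over all tested genes.

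Levels of different genes can be set side by side only per length. On the FPKM scale (CPM per kilobase of the listed gene length), CFC1 led with 66.5 ± 4.85 in parental and 111.7 ± 15.0 in resistant cells (SD, n = 3). POTEF followed with 7.07 ± 1.17 and 13.6 ± 1.16, and FAR2P1 with 4.88 ± 0.26 and 10.7 ± 0.41. The libraries of these 3 genes did not overlap those of the next gene in the order in either group. FAR2P3 (3.34 in resistant cells), POTEJ (2.37), CFC1B (2.19), POTEE (1.65), ANKRD30B (1.53), POTEI (0.79) and FAR2P2 (0.38) came after. In resistant cells POTEJ and CFC1B overlapped, as did POTEE and ANKRD30B, so their order is not resolved. ANKRD30B had the lowest FPKM of the members in parental cells (0.11 ± 0.011) and was level with POTEE in resistant cells.

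The genes around the members on chromosome 2 were not part of the list and went through edgeR's test. The window was placed by members chosen on this same contrast, so its counts are no independent support for a shift of the region. Within 1 Mb of the outermost members (128990456 to 132265278), the table lists 134 other genes, of which 29 had enough counts. In edgeR's test, 23 of these 29 genes were higher in resistant cells at an FDR of less than 0.05 and 0 were lower, with 6 not past the threshold. Over all tested genes, 17.1% were higher and 18.4% lower at that FDR. With the fold threshold added, 9 of the 29 were called higher, or 31.0%, where 2.53% of all tested genes were. Of these, RAB6C-AS1 (8, 9 and 10 parental counts), AC140481.3 (6, 12 and 4) and CYP4F30P (9, 16 and 14) needed resistant libraries to pass the filter. Their calls are therefore no support for a shift of the window, and the filter raises the share called. The median log2 fold change of the 29 genes was 0.69. Genes too low in both groups did not enter the test, and neighbouring or overlapping genes do not vary independently. Among the tested genes, KLF2P1, KLF2P3, CYP4F62P, AC140481.3 and PLEKHB2 overlap members and may share reads with them.

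The genes that rose most in this window were MED15P9 and CCDC74B. MED15P9, a pseudogene of the Mediator subunit gene MED15, had 57, 51 and 44 counts in parental and 281, 256 and 274 in resistant libraries, with a log2 fold change of 2.43 (SE 0.13, FDR 3.86e-19). It begins 399 bases from the start of POTEF and runs in the opposite direction. CCDC74B, a coiled-coil protein gene, went from 3.76 ± 0.17 to 15.8 ± 2.08 CPM (SD, n = 3), with a log2 fold change of 2.07 (SE 0.14, FDR 2.03e-16). The ends of these genes overlap on opposite strands, and the sources used here do not say whether counting used strand. MED15 itself, on another chromosome, had a log2 fold change of 0.12 (FDR 0.1002).

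AMER3, which encodes a membrane-associated APC-binding protein of the Wnt pathway, was the other abundant gene called higher. It rose from 32.4 ± 2.08 to 66.5 ± 3.71 CPM (SD, n = 3; log2 fold change 1.03, SE 0.061, FDR 7.06e-18). FAR2P4, CYP4F30P, CYP4F62P, KLF2P3, AC140481.3 and RAB6C-AS1 were also called higher, with log2 fold changes of 1.68, 1.49, 1.45, 1.36, 1.48 and 1.05 and at most 79 counts in any library. Other genes passed the FDR but not the fold threshold. The pseudogene AC073869.1 (log2 fold change 0.91) and the protein-coding genes CCDC74A (0.84), MZT2A (0.69), PTPN18 (0.57), CCDC115 (0.54) and IMP4 (0.38) were higher, as were the pseudogene KLF2P1 (1.00) and MZT2B (0.27), ARHGEF4 (0.27), PLEKHB2 (0.26) and SMPD4 (0.22), each at 10 CPM or more in resistant cells. RAB6D (0.75) and C2orf27A (0.80) were likewise higher, at 10.9 and 12.4 CPM in resistant cells, and so was AC093724.1 (0.54, FDR 0.0175). Some of these genes no longer passed the FDR when a library was left out. RAB6C-AS1 missed it without parental replicate 1 (log2 fold change 0.92, FDR 0.130), parental 2 (1.01, FDR 0.102), resistant 1 (1.04, FDR 0.0983) or resistant 2 (0.86, FDR 0.178). ARHGEF4 missed it without parental replicate 1 (0.21, FDR 0.127), parental 3 (0.26, FDR 0.0542), resistant 1 (0.21, FDR 0.145) or resistant 2 (0.25, FDR 0.0821). AC093724.1 missed it without parental replicate 2 (log2 fold change 0.29, FDR 0.218), resistant 2 (0.52, FDR 0.0564) or resistant 3 (0.48, FDR 0.0684), and AC140481.3 without resistant replicate 2 (1.25, FDR 0.0554). PTPN18, a protein tyrosine phosphatase that acts on HER2, went from 126 ± 3.69 to 186 ± 3.19 CPM (SD, n = 3; FDR 5.97e-17).

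The other 6 tested genes of the window did not pass the FDR. FAM168B, which lies between AMER3 and POTEE, was at 140 ± 6.78 CPM in parental and 143 ± 2.60 CPM in resistant cells (log2 fold change 0.03, FDR 0.580). RAB6C (−0.39), NOC2LP1 (−0.25), TUBA3E (0.24), TUBA3D (0.45) and GNAQP1 (0.65) had 62 counts or fewer in any library. The nearest tested genes outside the window were HS6ST1, 0.672 Mb before it (log2 fold change −0.30, FDR 0.0275), and MGAT5, 1.85 Mb after it (−0.02, FDR 0.883). In the 5 Mb before the window, a span added after the values were seen, 1 of 13 tested genes was higher at an FDR of less than 0.05, namely CNTNAP5 (log2 fold change 2.43), and 2 were lower. In the 5 Mb after it, 0 of 10 genes were higher and 3 were lower by edgeR's test. The rest of chromosome 2 had a median log2 fold change of −0.015 over 1065 genes, with 15.2% higher at that FDR.

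**Figure D2:**
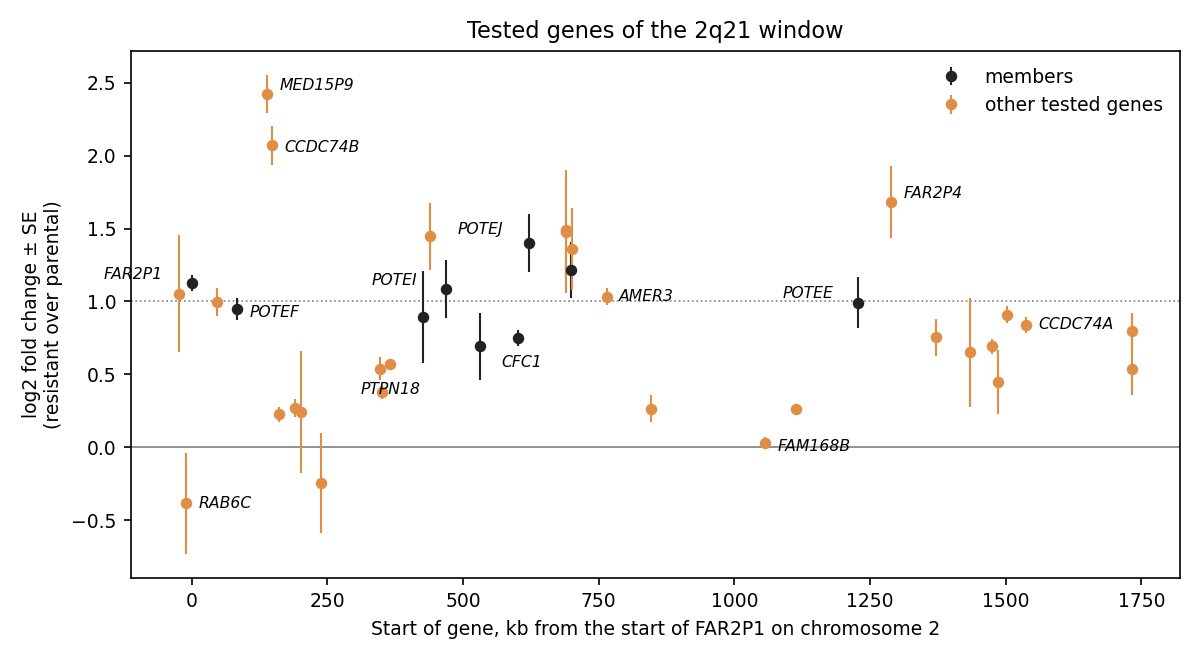
Log2 fold change (resistant over parental, with SE) of each tested gene of the 2q21 window against its distance in kb from FAR2P1, members in black and other genes in orange, with lines at 0 and 1. MED15P9 (2.43) and CCDC74B (2.07) lie above all members, FAM168B (0.03) lies at the line of no change, and 27 of the 29 other genes lie above 0.

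The POTE and FAR2 pseudogene members on chromosome 2 are laid out as repeats of a gene block. The list itself went by gene family and location, so this layout is given as a description. In 4 places a POTE gene and a FAR2 pseudogene lie 14.01 to 32.04 kb apart on the same strand, and a KLF2 pseudogene lies inside the FAR2 pseudogene on the opposite strand. The POTEF and POTEI blocks run on the reverse strand and the POTEJ and POTEE blocks on the forward strand. In the first 3 blocks a CYP4F pseudogene also lies next to or within the FAR2 pseudogene. FAR2P4, the partner of POTEE, is not a member, and had 20, 23 and 16 counts in parental and 79, 52 and 58 in resistant libraries (log2 fold change 1.68, SE 0.25, FDR 5.36e-07 in edgeR's test).

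Every tested gene of these blocks had a log2 fold change above 0, between 0.89 for FAR2P2 and 1.68 for FAR2P4. Those outside the member list that could be tested were FAR2P4, KLF2P1, KLF2P3, CYP4F62P and CYP4F30P. All 5 were higher at an FDR of less than 0.05, where 17.1% of all tested genes were. KLF2P1, KLF2P3 and CYP4F62P overlap members, FAR2P4 lies inside the span of PLEKHB2, and reads may be shared between overlapping genes or near-identical copies. The 5 genes are therefore no independent support for the direction of the members. KLF2P1 lies within FAR2P1 on the other strand and had 12.4 ± 1.88 CPM in parental and 24.8 ± 0.77 CPM in resistant cells (SD, n = 3). KLF2P2, KLF2P4 and CYP4F27P were too low for the filter. KLF2P2 had 6, 3 and 3 counts in parental and 14, 13 and 5 in resistant libraries, and KLF2P4 had 6, 2 and 0 against 17, 6 and 11. CYP4F27P had 1, 5 and 3 against 10, 8 and 2. The groups overlapped in CPM for KLF2P2 and CYP4F27P. KLF2, the source gene, is a zinc finger transcription factor, and had a log2 fold change of −0.42 (FDR 0.153).

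**Figure D3:**
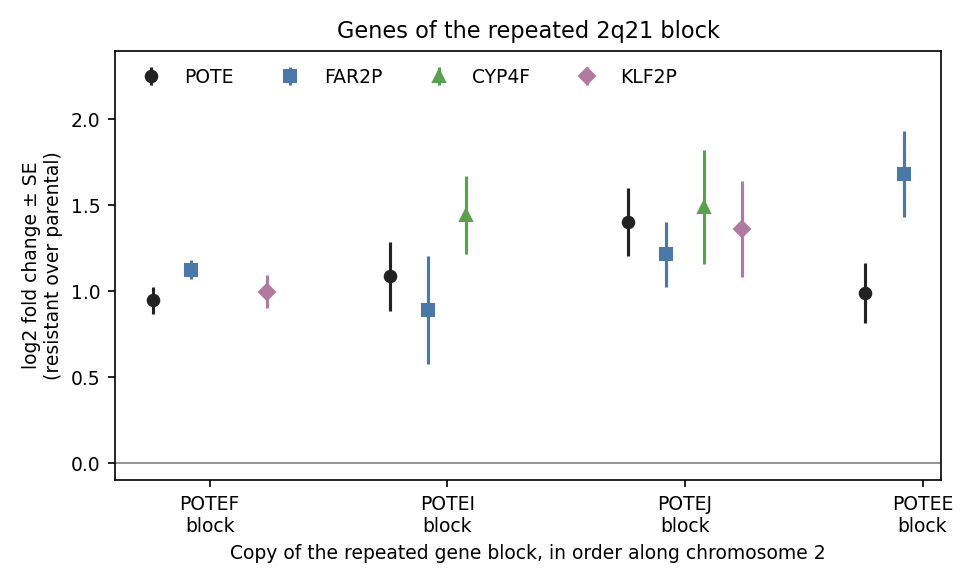
Log2 fold change with SE for the tested genes of the 4 copies of the block, ordered along chromosome 2, with a marker shape for each kind of gene. All fold changes lie between 0.89 (FAR2P2) and 1.68 (FAR2P4).

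Other gene pairs of the region are copies of each other that lie at opposite ends of it, and 4 such pairs were compared by the log2 ratio of their counts in each library. CCDC74B over CCDC74A was −3.60 ± 0.12 in parental and −2.38 ± 0.23 in resistant libraries (SD, n = 3), a difference of 1.22. MZT2B over MZT2A, genes of a mitotic spindle organizing protein, was −0.34 ± 0.13 and −0.76 ± 0.039, a difference of −0.42. RAB6C over RAB6D differed by −1.06. In each of these pairs the groups did not overlap (p = 0.1 in a two-sided exact permutation test, which cannot go lower with 3 against 3, and 0.133 adjusted over the 4 pairs). TUBA3E over TUBA3D, tubulin genes with few reads, differed by −0.26 and the groups overlapped (exact permutation p = 0.6). The first gene of each pair is the copy nearer to FAR2P1. The pairs were chosen after their values were seen, so these p-values are no support for a difference. The ratios also depend on how reads that fit both copies were counted, which is not known. RAB6C had at most 31 counts in a library and overlaps RAB6C-AS1 on the opposite strand.

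Close to ANKRD30B, 52 other genes are listed within 1 Mb, and 8 were tested. Of these, 6 were higher in resistant cells and 1 was lower at an FDR of less than 0.05, and 5 of the 8 were called higher, where 17.1%, 18.4% and 2.53% of all tested genes did so. The 5 called genes had 9 or fewer counts in every parental library and passed the filter through the resistant libraries, so a gene as low in both groups was not tested and the count of higher genes is no support for a shift of the window. ANKRD20A5P, a pseudogene of another ankyrin repeat gene, had 62, 67 and 53 counts against 111, 123 and 120 (log2 fold change 0.97, SE 0.16, FDR 5.04e-06). CYP4F35P had 7, 7 and 8 counts against 29, 27 and 31 (log2 fold change 1.97, SE 0.37, FDR 3.73e-05). RHOT1P1 (1.58), AP005212.4 (2.61), AP005212.2 (1.78) and FEM1AP2 (2.32) were the other genes called higher, with between 1 and 9 counts in parental libraries. RHOT1P1 lies inside ANKRD20A5P, and AP005212.2 lies inside AP005212.4. AP005212.4 also overlaps ANKRD20A5P and CYP4F35P. All of these overlaps are on the same strand, so the genes involved may share reads and are not separate observations. Without parental replicate 1, the log2 fold change was 3.51 for AP005212.4 and 3.39 for FEM1AP2, and AP005212.2 no longer passed (1.47, FDR 0.0669). The first resistant library held 11 counts of AP005212.4 where the others held 31 and 32.

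Tested protein-coding neighbours at the far end of this window did not share the direction. ZNF519, a zinc finger gene, fell by 0.25 on the log2 scale, from 18.6 ± 1.38 to 15.6 ± 0.65 CPM (SD, n = 3, FDR 0.0266), and RNMT, which encodes the mRNA cap methyltransferase, had a log2 fold change of −0.09 (FDR 0.181). MC5R, a protein-coding gene between them, had 0 counts in every parental library and 3, 3 and 12 in resistant libraries. It was too low for the filter and was not tested. The ZNF519 call was lost without parental replicate 2 (log2 fold change −0.19, FDR 0.158), resistant replicate 1 (−0.22, FDR 0.106) or resistant replicate 3 (−0.26, FDR 0.0557). POTEC, the POTE gene of this stretch, had 0, 2 and 0 counts in parental and 4, 1 and 3 in resistant libraries, too few for the filter. In the 5 Mb before the window, 1 of 33 tested genes was higher and 7 were lower at an FDR of less than 0.05, and the 5 Mb after it hold no gene of the table. The rest of chromosome 18 had a median log2 fold change of −0.034 over 240 genes.

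**Figure D4:**
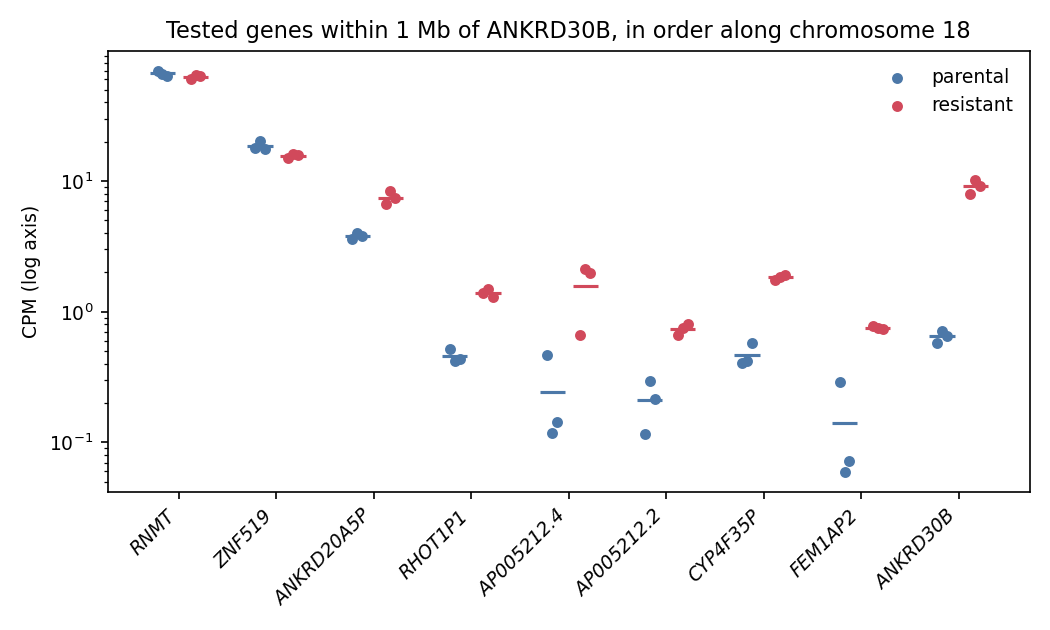
CPM on a log axis for the tested genes within 1 Mb of ANKRD30B, in order along chromosome 18, with parental libraries in blue, resistant libraries in red and bars at the means. RNMT and ZNF519 are nearly level between the groups, and the genes from ANKRD20A5P to ANKRD30B have all resistant libraries above all parental ones.

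The table lists 11 further genes with a POTE symbol. POTEH-AS1, an antisense transcript that overlaps POTEH on chromosome 22, was the only gene of the 11 that passed the filter, with 1, 3 and 3 counts in parental and 11, 16 and 10 in resistant libraries, and was called higher (log2 fold change 2.36, FDR 0.00153 in edgeR's test). It passed the filter through the resistant libraries alone, so this call is no support for a direction of the family. POTEH had 1, 0 and 0 counts against 10, 6 and 8, a ratio of 24.2 with a 95% exact interval of 3.95 to 995 that covers counting error only. Without strand-specific counting, reads of POTEH and POTEH-AS1 cannot be told apart. POTEKP, a pseudogene of the family on chromosome 2 inside the window described above, had 3, 1 and 3 counts against 14, 8 and 11, a ratio of 4.75 (2.07 to 12.7).

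When no filter was applied, edgeR's test of 34035 genes placed POTEH (FDR 9.17e-04), POTEH-AS1 (FDR 0.00212) and POTEKP (FDR 0.00819) among the genes that were higher at an FDR of less than 0.05, as were 8.17% of all genes in that fit. POTEC, POTED, POTEG and POTEM had at most 4 counts in any library, and no difference was detectable for them at this depth. POTEA, POTEB, POTEB2 and POTEB3 were at 0 in all libraries, which allows up to 3 counts in each, or 0.174 to 0.216 CPM.

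The actin genes were examined because the POTE members carry an actin-like segment. ACTB had 2214 ± 16.2 CPM in parental and 2166 ± 10.98 CPM in resistant cells (SD, n = 3; log2 fold change −0.03, FDR 0.257), and ACTG1 had 2001 ± 30.3 and 2130 ± 43.9 CPM (0.09, FDR 0.00111). Of 7 actin genes, 3 were tested, and ACTG1 alone passed the FDR. The POTE members together amounted to at most 82.1 CPM, far under either actin gene, and the cytoplasmic actins differed little where the POTE reads differed by 1.00 on the log2 scale.

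CFC1 and CFC1B work with NODAL and its activin-type receptors, which signal through SMAD proteins. Of the 14 other listed genes of this pathway, 7 were tested, of which 0 were higher and 5 were lower in resistant cells at an FDR of less than 0.05, as were 17.1% and 18.4% of all tested genes. SMAD3 fell by 0.43 (FDR 4.94e-05), SMAD4 by 0.18 (FDR 0.00180), SMAD2 by 0.14 (FDR 0.0135), the receptor gene ACVR2B by 0.22 (FDR 0.00570) and ACVR1C by 0.58 (FDR 0.0370) on the log2 scale in edgeR's test. The values for the receptor genes ACVR1B and ACVR2A were −0.08 (FDR 0.325) and 0.02 (FDR 0.910). The ligand gene NODAL had between 2 and 15 counts in a library and was not tested. The related co-receptor gene TDGF1 and the ligand genes GDF1 and GDF3 were at 0 in all libraries.

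FAR2, the functional source of the FAR2 pseudogenes on chromosome 12, did not share their direction. It went from 50.1 ± 2.37 to 41.0 ± 2.90 CPM (SD, n = 3), a log2 fold change of −0.29 (FDR 1.94e-04), and FAR1, the other fatty acyl-CoA reductase, had −0.14 (FDR 0.00895). Among the remaining ether lipid genes, GNPAT (0.03), AGPS (−0.14), DHRS7B (−0.02) and PEX7 (−0.12) did not pass the FDR. ANKRD30A, the nearest relative of ANKRD30B in the table with enough reads, had 8.17 ± 0.74 and 8.71 ± 1.82 CPM (SD, n = 3; log2 fold change 0.10, FDR 0.619). ANKRD30BL, a relative that lies in the 2q21 window, was at 0 in all libraries.

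By Pearson's correlation of log2 CPM over the 6 libraries, the genes most like the summed POTE reads were BMPR1B, DGAT2, TSTA3, GSTK1 and SLC25A44, all with coefficients above 0.997. With only 2 groups the coefficient follows the difference between them, and 904 genes exceeded 0.95, so the order among them carries little. The members were left out of this ranking beforehand, and none of the 5 other genes lies on chromosome 2. BMPR1B, a bone morphogenetic protein receptor gene on chromosome 4, had 16.2, 18.6 and 16.9 CPM in parental and 26.5, 28.6 and 29.1 CPM in resistant libraries. DGAT2, a triglyceride synthesis gene on chromosome 11, had 6.15, 7.98 and 6.77 CPM against 15.7, 19.0 and 19.4 CPM.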

How the data were processed

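RNA-Seq covered 3 libraries of parental 22Rv1 cells and 3 of the resistant subline, grouped by the sample titles. Per the labels and the paper's methods, the authors trimmed reads with fastp, mapped them to hg38 with HISAT2 2.0.5, counted them per gene with featureCounts 1.5.0-p3 and deposited raw counts. The gene lengths are another quantity that the authors deposited in the same table. Strand setting, annotation release and treatment of reads with several matches are not given in the sources used here. The labels name mouse as organism, whereas the gene identifiers are human. No human sequence was used here. All columns of per-sample values were used.

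Counts were filtered with filterByExpr, scaled with TMM and compared between groups by the quasi-likelihood F-test in edgeR 4.0.16 (R 4.3.3), and p-values were adjusted over 17142 genes by the Benjamini-Hochberg method. Members and gene lists were chosen with earlier results of these data known. Windows reach 1 Mb beyond the outermost members. Named genes are the members, all POTE genes, window genes called or at 10 CPM, source genes and relatives, tested NODAL pathway genes and the 5 genes of most similar pattern. Others, such as window genes not past a threshold, flanking genes and MED15, KLF2 and the copy pairs, were chosen after their values were seen. Copy ratios used a pseudocount of 0.5. Replicates differed by more than sampling noise (chi-square per degree of freedom 1.77 to 2.46). On simulated counts for 16890 genes with the sizes of these libraries, edgeR recovered 199 of 199 genes changed by a log2 value of 2, with 1 false call. The simulation used a common dispersion for all genes and no smaller change. Recovery at the smaller fold changes of the members on chromosome 2 was therefore not tested. Alternatives were limma-voom (limma 3.58.1), DESeq2 1.42.0, library size alone, glmTreat, a prior count of 5, no filter, a minimum of 10 counts per library throughout, a replicate block, summed paralogs and each library left out in turn. Intervals of shares and count ratios cover counting error only, and that of a fitted fold comes from its SE.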

Additional observations from a re-analysis of the deposited data

How the results depend on the processing

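Of 148 member values under the alternatives, 147 moved by less than the spread between replicates and 0 changed sign. For the 9 members on chromosome 2, these include the value of the summed copies, entered for each copy. That value describes the sum and not the member, as for POTEJ with 1.40 alone and 1.00 summed. The exception was ANKRD30B with a prior count of 5, at 3.30. Over all genes 921 were called, against 535 under a minimum of 10 counts per library and 322 with glmTreat, which tests against a log2 fold change of 1. glmTreat called 1 member in place of 5, and 3 in place of both the 14 called and the 29 higher non-member genes of the windows. Under the minimum of 10 counts, 7 non-member genes were called, since low genes leave the test. Among other POTE genes, 1 was called, 3 without a filter, 0 under the minimum of 10 counts, 0 with glmTreat, and 1 to 2 with a library left out. Without a filter 19 and with a library left out 15 to 18 window genes were called. Of 30 window genes past the FDR, 24 stayed past it under all alternatives that tested them but glmTreat. The 6 that did not were ZNF519, RAB6C-AS1, ARHGEF4, AC093724.1, AP005212.2 and AC140481.3. For changes not due to construction, the cause was not tested. With the replicate number as a block (replicate block), 889 genes, 5 members and 14 window genes were called, and RAB6C-AS1 lost its call (FDR 0.0523). Same-numbered libraries did not deviate together (correlations −0.0197 to −0.00806), so no pairing by number was detected. These values cannot tell whether same-numbered libraries were prepared together. Depth limits POTEH, POTEKP and the genes of 18p11, which rest on few parental counts.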
